A study of Mus musculus with 8 samples.

Results

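The nuclear genes of the respiratory chain were read in newly made RNA of mouse embryonic stem cells whose histone H3.3 carries the K122A substitution. Members were the gene symbols that begin with Nduf, Uqcr, Atp5 or Cox4 to Cox8, together with Sdha to Sdhd, Cyc1 and Cycs, and this rule used no measured value. It found 91 genes among the 16896 symbols of the authors' 4 deposited tables, and each of the 91 was in all 4 tables. Complex I accounted for 44 of them (7 core subunits, 29 accessory subunits and 8 assembly factors named Ndufaf), complex II for 4, complex III for 9, cytochrome c for 1, complex IV for 14 with Ndufa4 counted there, and complex V for 17. The remaining 2 are annotated as noncoding in GENCODE M21: Cox6c2, a processed pseudogene, and Ndufb1-ps, a long noncoding RNA. RefSeq gives Ndufb1-ps under the symbol Ndufb1, and it was not counted in complex I here. Of the annotated symbols that the rule would also take, the coding genes Atp5s, Cox4i2, Cox6a2, Cox7b2, Cox8b, Cox8c and Ndufa4l2 were not analysed here.

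The cells were ES-E14TG2a (E14), a male mouse embryonic stem cell line, and the assay was TT-seq, in which RNA made during a short pulse of the uridine analogue 4-thiouridine (4sU) is biotinylated, drawn out and sequenced. All 8 libraries came from cells given 500 nM 4sU for 5 min. H3.3, the H3 variant placed into chromatin outside DNA replication, has 2 genes, H3f3a and H3f3b, which make 4 alleles in a diploid cell. Wildtype cells gave 3 libraries, described as biological replicates. Single-targeted lines had 2 mutant alleles, in 1 line of genotype H3f3a A/A H3f3b WT/WT and 1 of genotype H3f3a WT/WT H3f3b A/A. Dual-targeted lines had 3 mutant alleles, in 3 lines: 2 clones H3f3a A/A H3f3b WT/A and 1 line H3f3a WT/A H3f3b A/A, called the clones and the third line. Each mutant line was profiled once, so replicates within a mutant group are different lines, and a change tied to 1 line cannot be told apart from one tied to its genotype. Media with LIF alone and with LIF plus 2 inhibitors are both described, and which one these cells had is not said.

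The respiratory chain of the inner mitochondrial membrane passes electrons from NADH through complex I, or from succinate through complex II, by way of coenzyme Q to complex III, and then by cytochrome c to complex IV, which reduces oxygen. Complexes I, III and IV move protons across the membrane, and complex V, the ATP synthase, makes ATP from that gradient. Complex II is encoded by nuclear genes alone, while the others join nuclear subunits to a few encoded by mitochondrial DNA. NRF1, the ETS factor GABP (also called NRF2) and YY1 are the transcription factors best known for acting at the nuclear promoters.

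The files hold comparisons and no values per library, so the depth of each library is unknown, and the only error of a value is the authors' standard error. All 6 embryonic stem cell markers on a list were measured, with mean normalized counts between 812 and 4211 in the authors' deposited table of dual-targeted and wildtype libraries. Of these 6, 3 were called higher in dual-targeted lines, Pou5f1 at a log2 fold change of 0.75 ± 0.21 (adjusted p = 0.00113), Dppa5a at 0.67 ± 0.20 (adjusted p = 0.00212) and Nanog at 0.49 ± 0.17 (adjusted p = 0.0105) in the authors' deposited table. Sox2, Esrrb and Zfp42 were not called. Over the 6 markers 4 lay above 0 and 2 below, the lowest at -0.22, in the authors' deposited table. Among 3 neural ectoderm markers Nes was called higher, at 1.91 ± 0.85 (adjusted p = 0.00802), and Pax6 and Sox1 were not called, at -0.33 and -0.32 in the authors' deposited table. The part of these cell type markers in the members' results was not tested. Of 6 fibroblast and feeder markers 2 were measured there, the higher of them at 25.2, and Col1a1 and Col1a2 were not in the authors' deposited tables. The members had mean normalized counts between 17.3 (Cox7a1) and 4246 (Atp5b) in the authors' deposited table of that comparison, with a median of 245. In such bulk libraries fewer cells of a type and less RNA per cell cannot be told apart.

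Dual-targeted lines were set against wildtype to ask what newly made RNA looked like with 3 of the 4 H3.3 alleles mutated. Of the 91 members, 29 were called higher at an adjusted p under 0.05 and 0 lower (DESeq2, with Benjamini-Hochberg adjustment over the whole table) in the authors' deposited table. Over all 16493 genes tested there, 10.8% were called higher and 10.1% lower. At an unadjusted p under 0.05 the members numbered 46 higher and 0 lower in the authors' deposited table. The median log2 fold change of the members was 0.33, against 0.01 over all genes, and 81 members lay above 0 and 10 below in the authors' deposited table. Single members ranged from -0.29 ± 0.21 (SE) for the complex I accessory subunit Ndufv3 to 1.26 ± 0.29 for Atp5k, the e subunit of ATP synthase. The higher calls were spread over complexes I, III, IV and V, and complex II had none. Whether the complexes differ from each other was not tested.

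**Figure D1:**
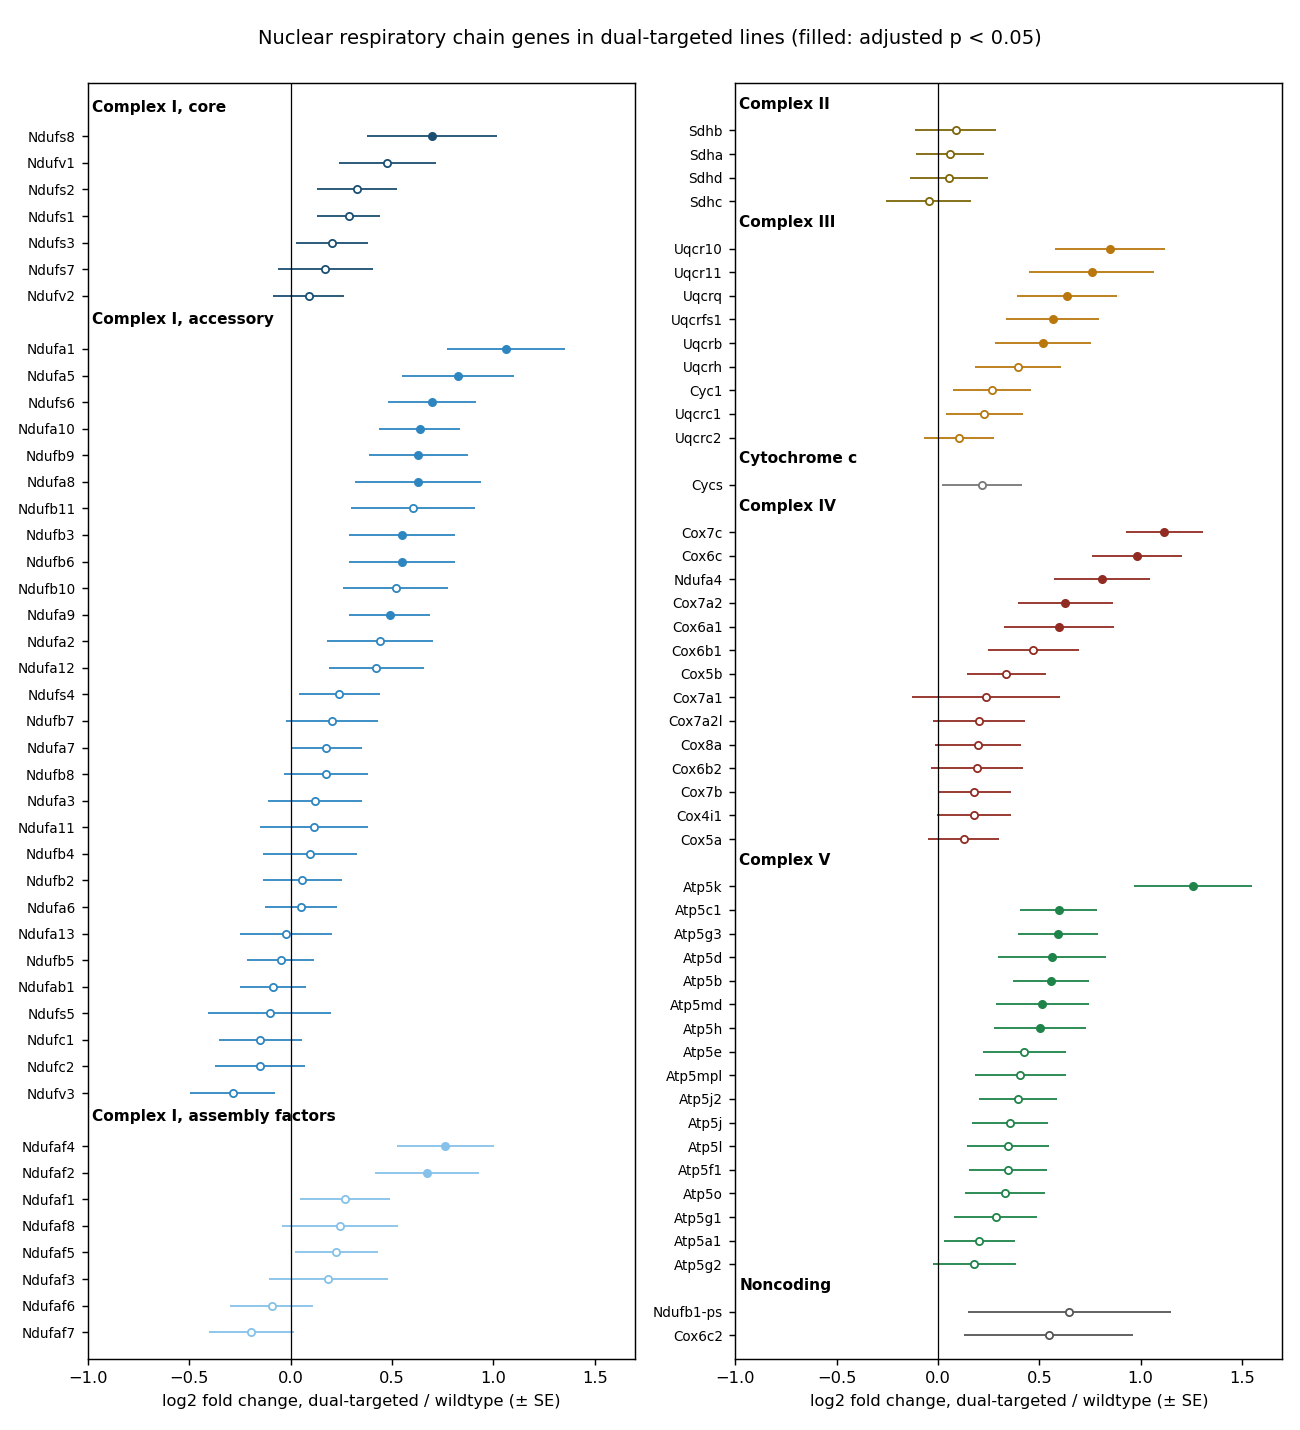
Each point is the deposited log2 fold change of 1 member in dual-targeted lines against wildtype (x axis, with its standard error as the bar), ordered within each complex. Filled points have an adjusted p under 0.05; all 29 lie to the right of 0, and the 4 complex II genes sit close to it.

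Complex I had 12 of its 44 genes called higher. Among the core subunits, which carry the flavin and the iron-sulfur clusters, 1 of 7 was called, Ndufs8, at a log2 fold change of 0.70 ± 0.32 (adjusted p = 0.0308) in the authors' deposited table. All 7 core subunits lay above 0, with a median of 0.29, and the most abundant of them, Ndufs1, stood at 0.29 ± 0.16 (adjusted p = 0.144) in the authors' deposited table. The accessory subunits, which surround the core without taking part in electron transfer, had 9 of 29 called and a median of 0.20. Ndufa1, a small membrane subunit, was the furthest from wildtype at 1.06 ± 0.29 (adjusted p = 5.37e-04), followed in adjusted p by Ndufs6, which binds zinc, at 0.70 ± 0.22 (adjusted p = 0.00313) in the authors' deposited table. Ndufa10 and Ndufa5 came next, at 0.64 ± 0.20 (adjusted p = 0.00375) and 0.82 ± 0.27 (adjusted p = 0.00428) in the authors' deposited table. Of the accessory subunits 7 lay below 0. Besides Ndufv3 these were Ndufc1, Ndufc2, Ndufs5, Ndufb5, Ndufa13 and the acyl carrier protein Ndufab1, none of them called. The 8 Ndufaf assembly factors, which build complex I and are absent from the finished enzyme, had 2 called: Ndufaf4 at 0.76 ± 0.24 (adjusted p = 0.00291) and Ndufaf2 at 0.67 ± 0.26 (adjusted p = 0.0139) in the authors' deposited table.

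Complex II, succinate dehydrogenase, also belongs to the tricarboxylic acid cycle. Its flavoprotein Sdha stood at a log2 fold change of 0.06 ± 0.17 (adjusted p = 0.832) and its iron-sulfur subunit Sdhb at 0.09 ± 0.20 (adjusted p = 0.769) in the authors' deposited table. The membrane anchors Sdhc and Sdhd stood at -0.05 ± 0.21 (adjusted p = 0.886) and 0.05 ± 0.19 (adjusted p = 0.86) in the authors' deposited table. No complex II gene passed an unadjusted p of 0.05 by the authors' DESeq2 test. Sdha was among the most abundant members, with a mean normalized count of 1495 in the authors' deposited table.

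Complex III had 5 of 9 genes called higher and a median of 0.52, the highest median of the coding groups. Of its redox subunits the Rieske iron-sulfur protein Uqcrfs1 was called, at 0.57 ± 0.23 (adjusted p = 0.024), and cytochrome c1, Cyc1, was not, at 0.27 ± 0.19 (adjusted p = 0.274), in the authors' deposited table. The other calls fell on the small subunits Uqcr10 (0.85 ± 0.27, adjusted p = 0.0032), Uqcr11 (0.76 ± 0.31, adjusted p = 0.0157), Uqcrq (0.64 ± 0.25, adjusted p = 0.0161) and Uqcrb (0.52 ± 0.24, adjusted p = 0.0464) in the authors' deposited table. The large core proteins Uqcrc1 and Uqcrc2 stood at 0.23 ± 0.19 (adjusted p = 0.349) and 0.10 ± 0.17 (adjusted p = 0.694) in the authors' deposited table. Cycs, the mobile carrier to complex IV, stood at 0.22 ± 0.20 (adjusted p = 0.399) in the authors' deposited table.

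Complex IV, cytochrome c oxidase, had 5 of 14 genes called, and all 14 lay above 0. Cox7c, a small membrane subunit, had the lowest adjusted p of any member, with a log2 fold change of 1.12 ± 0.19 (adjusted p = 5.00e-08) in the authors' deposited table. Cox6c followed at 0.98 ± 0.22 (adjusted p = 4.00e-05), then Ndufa4, once assigned to complex I, at 0.81 ± 0.24 (adjusted p = 0.0015), in the authors' deposited table. The broadly expressed forms of the 7a and 6a subunits were called, Cox7a2 at 0.63 ± 0.24 (adjusted p = 0.0138) and Cox6a1 at 0.60 ± 0.27 (adjusted p = 0.037) in the authors' deposited table. Cox7a1, the form of heart and muscle, had a mean normalized count of 17.3 and stood at 0.24 ± 0.37 (adjusted p = 0.454), and the supercomplex factor Cox7a2l stood at 0.20 ± 0.23 (adjusted p = 0.48) in the authors' deposited table. Cox6b1, the general form of its subunit, stood at 0.47 ± 0.22 (adjusted p = 0.061) and Cox6b2, known from testis, at 0.19 ± 0.23 (adjusted p = 0.507), in the authors' deposited table. Cox4i1 and Cox5a, subunits close to the catalytic core, stood at 0.18 ± 0.18 (adjusted p = 0.48) and 0.13 ± 0.18 (adjusted p = 0.626) in the authors' deposited table.

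Complex V had 7 of 17 genes called, and all 17 lay above 0, with a median of 0.41. In the catalytic F1 head, Atp5b (beta), Atp5c1 (gamma) and Atp5d (delta) were called, at 0.56 ± 0.19 (adjusted p = 0.00857), 0.60 ± 0.19 (adjusted p = 0.00511) and 0.56 ± 0.27 (adjusted p = 0.0456) in the authors' deposited table. The alpha subunit Atp5a1, which is built into the same ring as beta, stood at 0.20 ± 0.17 (adjusted p = 0.385) in the authors' deposited table. Of the 3 genes for the identical c subunit of the membrane ring, Atp5g3 was called at 0.59 ± 0.20 (adjusted p = 0.00701), while Atp5g1 stood at 0.28 ± 0.21 (adjusted p = 0.261) and Atp5g2 at 0.18 ± 0.21 (adjusted p = 0.513) in the authors' deposited table. The stalk gene Atp5h was called at 0.50 ± 0.22 (adjusted p = 0.0435), and the small membrane subunit Atp5k, given above, had an adjusted p of 4.16e-05 and Atp5md one of 0.0421 (0.52 ± 0.23) in the authors' deposited table.

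Ndufb1-ps and Cox6c2, annotated as noncoding in GENCODE M21, stood at 0.65 ± 0.50 (adjusted p = 0.101) and 0.55 ± 0.42 (adjusted p = 0.127) in the authors' deposited table. As a processed pseudogene Cox6c2 resembles Cox6c in sequence, so reads of the parent could be counted there or the other way round. Exons of 31 members overlap exons of another gene, and the sources used here do not say whether strand was used in counting. Of the 29 members called, 8 have such an overlap, namely Atp5d, Cox6c, Ndufa9, Ndufaf2, Ndufb6, Ndufb9, Ndufs6 and Uqcrb, and 21, Cox7c, Atp5k and Ndufa1 among them, have none.

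Promoter windows are shown for 2 members called higher and 2 that were not called, because genes with the same promoter letters fell on both sides of the call: Atp5k and Cox7c, which were higher in dual-targeted lines, and Sdha and Sdhd of complex II, which were not called. Both called genes have 3 exons, Atp5k (chr5:108433244-108434448) over 1205 bases and Cox7c (chr13:86044816-86046904) over 2089 bases, while Sdha has 16 exons over 28027 bases (chr13:74322254-74350280, all GRCm38). Each window runs from 120 bases before to 30 bases after the start of the gene in RefSeq, on build GRCm38.p6, and all 4 genes lie on the minus strand. The regions are chr5:108434370-108434519 for Atp5k, chr13:86046766-86046915 for Cox7c, chr13:74350211-74350360 for Sdha and chr9:50603820-50603969 for Sdhd. Letters are 5′ to 3′ along the gene, and capitals mark matches to the letters of NRF1 (GCGCA and GCGC with any 1 base between them) or ETS factors (CCGGAAG) on either strand.
Atp5k: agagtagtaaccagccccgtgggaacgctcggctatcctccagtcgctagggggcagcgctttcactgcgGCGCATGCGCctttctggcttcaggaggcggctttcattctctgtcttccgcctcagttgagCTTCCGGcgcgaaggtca
Cox7c: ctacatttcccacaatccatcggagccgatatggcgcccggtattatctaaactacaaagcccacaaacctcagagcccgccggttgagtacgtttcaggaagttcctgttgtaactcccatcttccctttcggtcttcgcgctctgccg
Sdha: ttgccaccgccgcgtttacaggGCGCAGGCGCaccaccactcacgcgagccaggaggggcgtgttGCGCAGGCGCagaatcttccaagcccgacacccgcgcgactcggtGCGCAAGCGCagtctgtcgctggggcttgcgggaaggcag
Sdhd: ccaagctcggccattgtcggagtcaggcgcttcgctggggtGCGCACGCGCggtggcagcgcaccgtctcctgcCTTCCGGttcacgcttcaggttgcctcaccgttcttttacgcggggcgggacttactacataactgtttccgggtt

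Atp5k has NRF1 letters 50 bases before its start and ETS letters 12 bases after it. Sdhd has both before its start, at 79 and 46 bases, and Sdha has NRF1 letters at 98, 55 and 10 bases before its start. Cox7c has neither. Of the 2 genes called, 1 has these letters and 1 does not, and both complex II genes have them without a call. The genes shown were chosen for this, so they do not tell how letters and calls go together over the members.

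The same search was made over windows of 300 bases (250 before to 50 after the start, RefSeq), which the table holds for 76 members and 10701 of the genes tested. NRF1 letters were in 25.0% of the members (19 genes) and 11.4% of the genes tested, and ETS letters in 25.0% (19 genes) and 20.0%. YY1 letters (AAGATG followed by GCGGC) were in 6.58% of the members and 1.76% of the genes tested, among them Ndufs6 and Ndufa9, which were called. SP letters (GGGGCGGGG) were in 15.8% of the members against 25.0%, and TATAAA in 7.89% against 8.46%. Both strands were searched for each motif, and no matches of different motifs overlapped in the members' windows. Among the 25 members with a window that were called higher, 9 had NRF1 letters and 7 ETS letters, and among the 51 not called, 10 and 12. A match to letters is a description and not a binding site.

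Single-targeted lines were set against wildtype to read the members with 2 mutant alleles. No member was called at an adjusted p under 0.05 in either direction by DESeq2 in the authors' deposited table, where 2.96% of the 15030 genes tested were called. The median log2 fold change of the members was -0.02, with 39 above 0 and 52 below, in the authors' deposited table. Cox7c stood at 0.12 ± 0.16 (adjusted p = 0.705) and Atp5k at -0.11 ± 0.19 (adjusted p = 0.666) in the authors' deposited table. All 4 complex II genes lay below 0, led by Sdha at -0.22 ± 0.20 (adjusted p = 0.424) in the authors' deposited table. This comparison and that of the dual-targeted lines share the wildtype libraries, and their fold changes carry different shrinkage, so their sizes are not strictly comparable.

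The members with the lowest values in single-targeted lines were the 3 that lie on chromosome 8, and these were also the only 3 with an unadjusted p under 0.05, all lower. Ndufa13 (chr8:69894180-69902558, minus strand, GRCm38), an accessory subunit also known as GRIM-19, stood at -0.55 ± 0.29 (adjusted p = 0.0804) in the authors' deposited table. Cox4i1 (chr8:120668222-120674207, plus strand) stood at -0.43 ± 0.22 (adjusted p = 0.101) and Ndufb7 (chr8:83566671-83571626, plus strand) at -0.27 ± 0.27 (adjusted p = 0.336) in the authors' deposited table. The chromosome moved with them: over all its genes the median was -0.13, with 86 called lower and 3 higher of 788 tested, in the authors' deposited table of single-targeted lines. In dual-targeted lines the chromosome's median was -0.27, with 265 called lower and 41 higher of 856, in the authors' deposited table. The same 3 members did not follow it there, at -0.02 ± 0.23 for Ndufa13, 0.18 ± 0.18 for Cox4i1 and 0.20 ± 0.23 for Ndufb7 in the authors' deposited table. The part of the chromosome in these values was not tested, and no member lies on chromosome 14, whose genes had a median of -0.34 in the clones in the authors' deposited table.

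**Figure D2:**
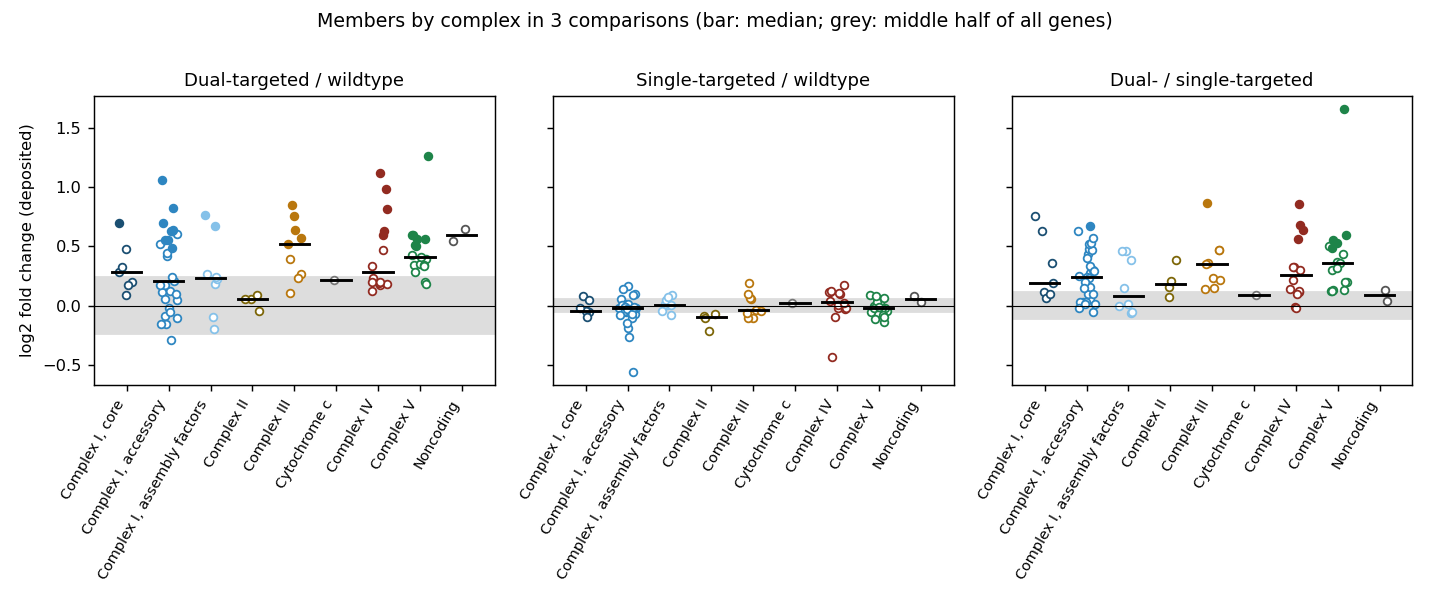
Deposited log2 fold changes of the 91 members by complex (points, filled where the adjusted p is under 0.05) in 3 comparisons, with the median of each complex as a bar and the range between the quartiles of all genes in grey. Members lie mostly above 0 in both comparisons of dual-targeted lines, and near 0 in single-targeted lines except for the low points of chromosome 8.

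Dual-targeted lines were also set directly against single-targeted lines, which compares lines with 3 and with 2 mutant alleles without wildtype libraries. Here 11 members were called higher at an adjusted p under 0.05 and 0 lower (DESeq2) in the authors' deposited table, where 4.37% of the 13141 genes tested were called higher, 2.69% lower and 7.06% in either direction. At an unadjusted p under 0.05 there were 36 higher and 0 lower in the authors' deposited table. The median of the members was 0.23, against -0.00 over all genes, and 85 members lay above 0. Complex V held 5 of the calls, complex IV 4, and complexes I and III 1 each. Atp5k had the largest difference at 1.65 ± 0.36 (adjusted p = 1.46e-04), and Cox7c the lowest adjusted p, at 0.86 ± 0.18 (adjusted p = 1.29e-04), in the authors' deposited table. The other complex V genes were Atp5b (0.59 ± 0.23, adjusted p = 0.0248), Atp5j2 (0.53 ± 0.22, adjusted p = 0.0345), Atp5c1 (0.49 ± 0.21, adjusted p = 0.0439) and Atp5g3 (0.56 ± 0.26, adjusted p = 0.0477) in the authors' deposited table. Complex IV had Cox6b1 (0.68 ± 0.29, adjusted p = 0.0323), Cox4i1 (0.64 ± 0.28, adjusted p = 0.0338) and Cox6c (0.57 ± 0.25, adjusted p = 0.0431) beside Cox7c in the authors' deposited table. Uqcr11 of complex III stood at 0.86 ± 0.42 (adjusted p = 0.0365) and Ndufa5 of complex I at 0.67 ± 0.33 (adjusted p = 0.0455) in the authors' deposited table. Of the complex II genes Sdha came closest, at 0.39 ± 0.18 (adjusted p = 0.0694), in the authors' deposited table. With chromosomes 8, 14 and Y left out and p adjusted over the remaining genes, 6 members were called in place of 11. Cox4i1, on chromosome 8, was then left out by construction. With p adjusted over every deposited p and all chromosomes kept, 7 members were called.

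Means per group were rebuilt from the 4 deposited mean counts and the known numbers of libraries, with the median gene of each group set to wildtype, to see on which side a difference lay. They carry no error. Cox7c stood at 912 normalized counts in wildtype, 1083 in single-targeted lines, 2056 in the clones and 1999 in the third line. Both dual-targeted genotypes thus lay about equally far above wildtype and the single-targeted mean. Atp5k stood at 105 in wildtype, 78.8 in single-targeted lines, 293 in the clones and 224 in the third line. The single-targeted mean lay below wildtype here, and both dual-targeted genotypes above it. Atp5b, the most abundant member, stood at 3356 in wildtype, 3161 in single-targeted lines, 5150 in the clones and 5107 in the third line. Cox4i1 stood at 980 in wildtype, 659 in single-targeted lines, 1102 in the clones and 1200 in the third line, so single-targeted lines lay further below wildtype than dual-targeted lines lay above it. Of the 11 members called between the mutant groups, 7 had a single-targeted mean below wildtype with the dual-targeted mean above it, and 4 had both above. Of these 4, Atp5c1, Cox7c and Ndufa5 had a single-targeted mean at or below wildtype when no scaling was made between tables.

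**Figure D3:**
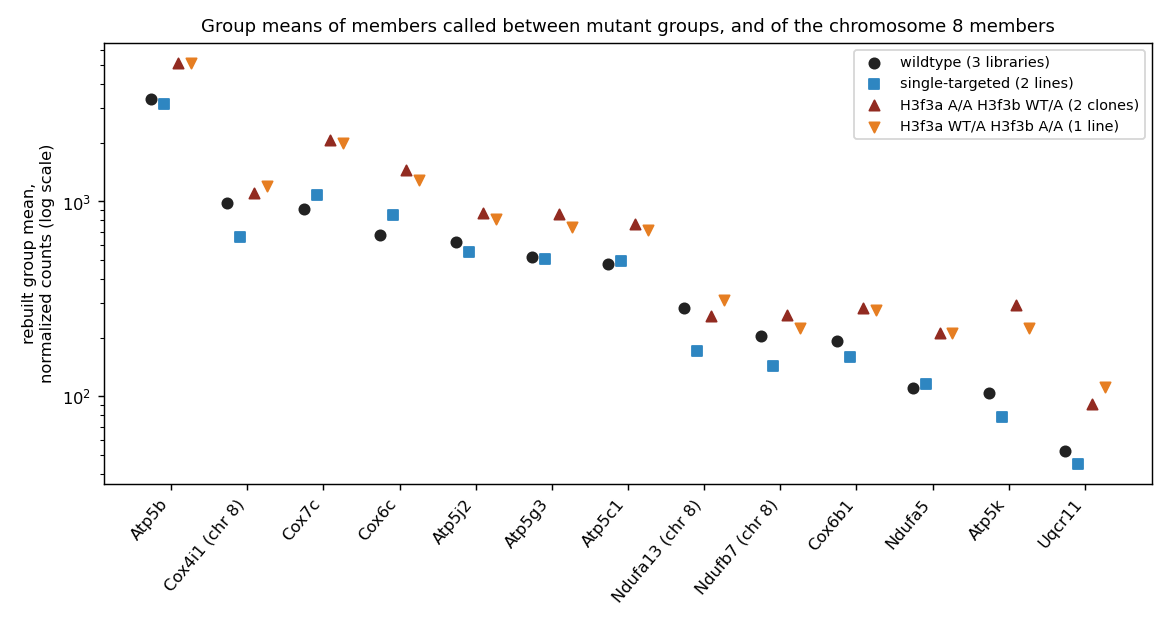
Rebuilt mean normalized counts (log axis) in wildtype, single-targeted lines and both dual-targeted genotypes, with 1 point per group, for the 11 members called between dual- and single-targeted lines and for the other chromosome 8 members. With the median gene of each group set to wildtype, both dual-targeted genotypes lie above the single-targeted mean for all 13 genes shown (scaled by the sum of mean counts, the clones for 13 and the third line for 9), and the low single-targeted values of Cox4i1, Ndufa13 and Ndufb7 are seen against wildtype. As 11 of the 13 genes were chosen by their calls between these same libraries, their order is largely fixed by the choice.

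The rebuilt means also set the dual-targeted genotypes side by side. With the median gene set to wildtype, 82 of 91 members lay above wildtype in the clones and 76 in the third line, with median log2 ratios of 0.46 and 0.38, and 39 in single-targeted lines, at -0.04. Scaled by the sum of mean counts instead, the median of the dual-targeted group turned to -0.061, that of the clones fell to 0.069 and that of the third line turned to -0.22. A single gene reached a mean count of 5.08e+06, of a sum of 1.26e+07, in the authors' deposited table, so that sum is led by few genes. All 29 members called against wildtype lay above it in both genotypes under the first scale (29 in the clones and 25 in the third line under the sum), at log2 ratios from 0.55 to 1.49 in the clones and from 0.39 to 1.21 in the third line. The 29 were picked for being higher in these same libraries, so this count is partly fixed by the choice. With the median gene set to wildtype, the single-targeted mean lay between wildtype and the dual-targeted mean for 20 of the 29, and below wildtype for 9. That split depends on the scale: with no scaling between tables, 11 of the 29 lay above wildtype in single-targeted lines. Under the first scale Cox6c is 1 of the 20, at 675 in wildtype, 857 in single-targeted lines, 1446 in the clones and 1286 in the third line. Ndufa1 is another, at 50.8, 79.5, 117 and 109 in the same order. The genotypes stood furthest apart for Ndufs5, Ndufa11 and Sdhc, picked after their values were seen and none of them called. Ndufs5 stood at 38.9 in the clones and 17.0 in the third line, Ndufa11 at 44.6 and 80.3, and Sdhc at 323 and 212. With 1 library for the third line, those gaps have no replicate check.

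The clones alone were set against wildtype in a table of their own, which leaves out the third line. In it 16 members were called higher at an adjusted p under 0.05 and 0 lower (DESeq2) in the authors' deposited table, where 9.05% of the 15640 genes tested were called higher and 10.3% lower. At an unadjusted p under 0.05 there were 41 higher and 1 lower, Ndufv3, at -0.48 ± 0.23 (adjusted p = 0.0653), in the authors' deposited table. All 16 were among the 29 called with the third line, and the count fell by more than 1.5 times as 1 library was left out. The median was 0.37, with Cox7c at 1.11 ± 0.22 (adjusted p = 4.36e-06) and Atp5k at 1.36 ± 0.33 (adjusted p = 8.49e-05) in the authors' deposited table. The 4 complex II genes lay from 0.05 to 0.10 in the authors' deposited table. All 3 comparisons that hold dual-targeted libraries called 7 of these 16. The clone libraries are in all 3, so these calls are not independent of each other.

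Respiratory chain genes are short, and fold change in dual-targeted lines moved with length over the whole table. The median spliced length was 1675 bases for members and 4579 for 12657 protein-coding genes, and the median gene span with introns was 7382 against 24933 bases. Coding genes outside the list that fell in the shortest of 5 equal classes by spliced length had a median log2 fold change of 0.12 and 16.6% called higher, and those in the longest class a median of -0.10, in the authors' deposited table. The 63 members in the shortest class had a median of 0.34, and 23 of them were called higher, in the authors' deposited table. By gene span, the shortest class had a median of 0.15 and 18.6% called higher among other genes, and 0.39 and 19 of 53 among members, in the authors' deposited table. When each gene's signed z (from the deposited p) was taken less the median z of all annotated genes of like spliced length, noncoding genes included, 18 of the 29 members called in dual-targeted lines kept their calls, Cox7c, Cox6c, Atp5k and Ndufa1 among them. Between the mutant groups 3 of 11 did, Cox7c, Atp5k and Atp5b. With classes of gene span 19 of the 29 and 2 of the 11, Cox7c and Atp5k, kept their calls. Against protein-coding genes alone, 14 of the 29 kept their calls by spliced length and 13 by span, and between the mutant groups 3 and 2 of the 11 did. The members' median log2 fold change in dual-targeted lines less that of all annotated genes of like length was 0.30 by spliced length and 0.29 by span. Less that of protein-coding genes, it was 0.24 by either length. Within the members, those called had a median spliced length of 1291 bases and those not called 1795. Intron counting is likewise not given, and the part of length in the calls was not tested.

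**Figure D4:**
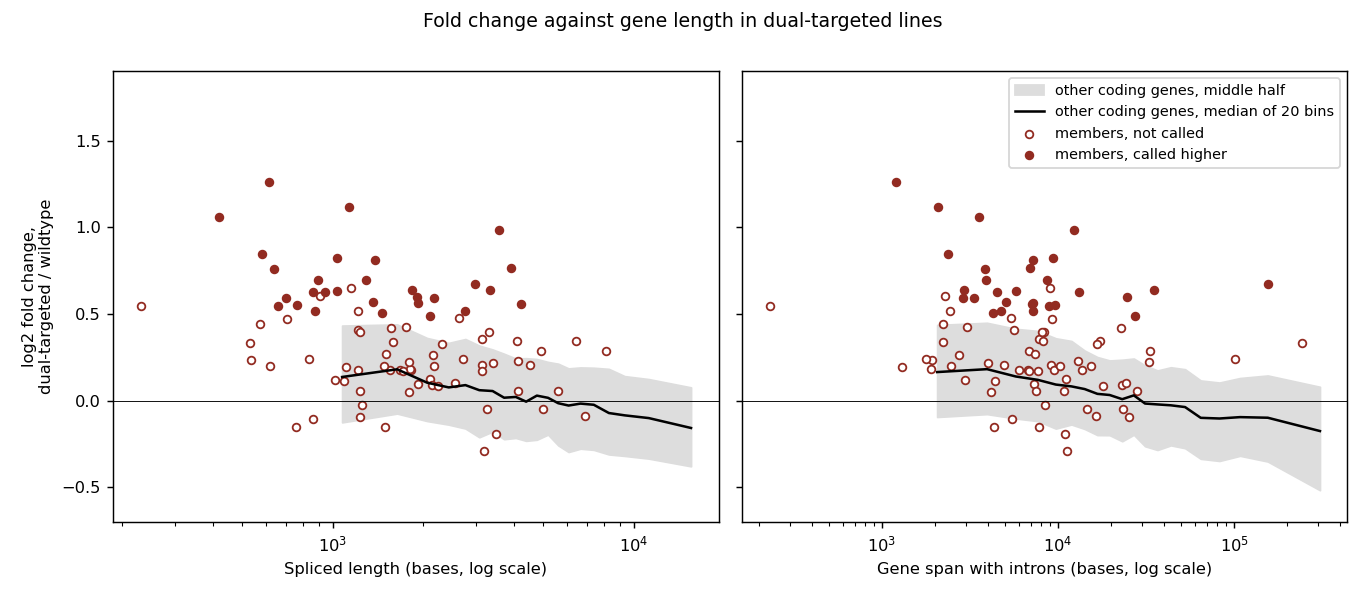
Deposited log2 fold change in dual-targeted lines against wildtype (y axis) for each member by spliced length (left) and gene span (right), in bases on log axes, with the median (line) and quartile range (grey) of other coding genes in 20 classes of length. Members of a given length lie mostly above the line, which falls from short to long genes.

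Other genes of the pathway were read from lists. In dual-targeted lines 10.8% of all genes tested were called higher and 10.1% lower in the authors' deposited table. Of 42 assembly factors not named Ndufaf, dual-targeted lines had 4 higher and 0 lower, with a median of 0.04, in the authors' deposited table. They were Acad9, a complex I factor, Tmem242, a complex V factor, and Cox11 and Coa5, which act in building complex IV. Coenzyme Q synthesis had 2 higher (Coq4 and Coq7) and 2 lower (Coq2 and Coq10a) of 13, and the tricarboxylic acid cycle 0 higher and 1 lower (Idh2) of 14, in the authors' deposited table. Of 12 nuclear regulators of respiratory genes 1 was higher, Myc, at 1.37 ± 0.31, while Nrf1, Gabpa, Yy1 and Tfam, known to act on respiratory genes or mitochondrial DNA, were not called in the authors' deposited table. None of these 4 lists had a call in single-targeted lines in the authors' deposited table, where at an unadjusted p under 0.05 they had 1 higher and 5 lower.

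The subunits encoded by mitochondrial DNA, the partners of these proteins in complexes I, III, IV and V, were read beside them. In dual-targeted lines 3 of 11 were higher, mt-Nd1, mt-Nd6 and mt-Co1, and in single-targeted lines 6 of the 11 with an adjusted p were higher and 0 lower, in the authors' deposited tables. Their median in single-targeted lines was 1.85 (median standard error 0.61), where that of the nuclear members was -0.02 (median standard error 0.16), in the authors' deposited table. Set against single-targeted lines, dual-targeted lines had 0 higher and 5 lower among them, where the nuclear members had 11 and 0, in the authors' deposited table. Over all genes tested, 10.8% were called higher in dual-targeted and 1.49% in single-targeted lines against wildtype. Between the mutant groups 4.37% were called higher and 2.69% lower. Mitochondrial transcripts are made by a separate polymerase from a genome of many copies.

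Ribosomal protein genes, which are also short and abundant, gave a second reference. Mitochondrial ribosomal proteins had 15 of 77 higher and 0 lower, with a median of 0.26, and cytosolic ribosomal proteins 47 of 84 higher and 0 lower, with a median of 0.51, in the authors' deposited table of dual-targeted lines. The members, at 29 of 91 and 0.33, lay between the 2 lists. Against single-targeted lines the counts were 3 of 77, 42 of 84 and 11 of 91 in the authors' deposited table. Over all genes tested, 10.8% were called higher in dual-targeted lines against wildtype and 4.37% against single-targeted lines. These lists differ in length and abundance, and the differences between them were not tested.

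**Figure D5:**
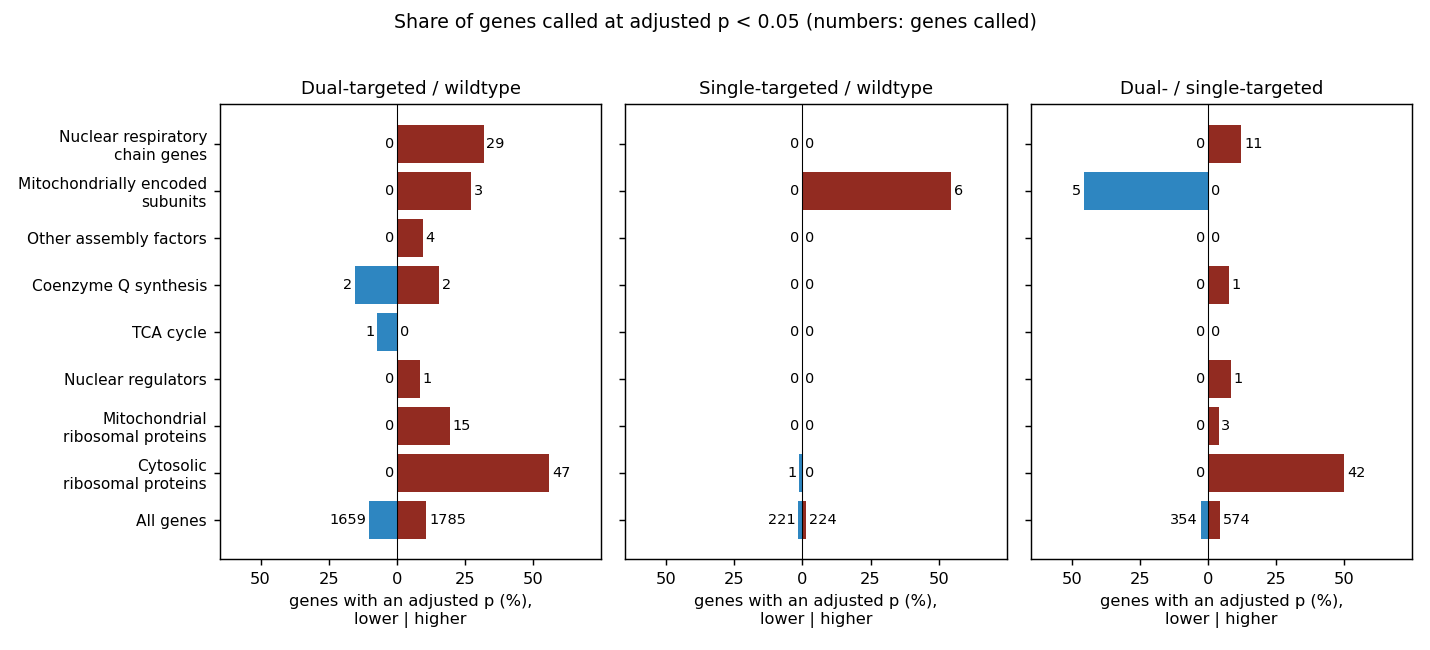
Share of genes called higher (right of 0, red) and lower (left of 0, blue) at an adjusted p under 0.05 among genes with an adjusted p (x axis, percent), with the number called beside each bar, for the members, 7 lists of other genes and all genes. Members have higher calls without lower ones in both comparisons of dual-targeted lines, whereas the mitochondrially encoded subunits have higher calls in both groups of mutant lines against wildtype and lower calls between the mutant groups.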

How the data were processed

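TT-seq libraries of 8 samples were compared in 4 tables that the authors fitted with DESeq2, each normalized apart: dual-targeted, single-targeted and the 2 clones against wildtype, and dual- against single-targeted. Per the submitters' processing notes the builds were GRCm38.p6 and mm10, and the tools deepTools, DESeq2, featureCounts, SAMtools and STAR; versions, strand use and whether introns were counted are not given in the sources used here. Per the file headers, each table holds the authors' mean signal over the libraries compared (the mean of normalized counts), the log2 fold change with its standard error, and the p-value and adjusted p-value made by the authors. Fold changes are read as shrunken, since 100% of called genes had a smaller value than p and error imply; the estimator is not given, and shrinkage differs between tables. In the order dual-targeted, single-targeted, dual- against single-targeted and clones, there were 16498, 16255, 16149 and 16254 genes, and an adjusted p for 16493, 15030, 13141 and 15640 (an empty one was kept empty). No values per library were used, so depth per library is unknown.

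No model was refitted. Members were taken by symbol, grouped by complex, and counted at an adjusted p under 0.05. The members and lists were chosen with earlier results of these data known. Group means were rebuilt by subtraction from the 4 mean counts over known numbers of libraries, for 15571 genes in all tables (2 came out below 0), with scales of 0.983, 1.06 and 0.957 that set the median gene to wildtype. For 100% of 2726, 387, 885 and 2504 called genes the sign of the fold change matched these means, which fixed its direction. Named genes were, for each comparison and complex, up to 4 called members in each direction by adjusted p, the 2 most abundant and the highest and lowest fold change per complex, all of complex II, Cyc1, Cycs and the paralogue sets; others named were picked after their values were seen. Alternatives were stricter and looser thresholds, a mean count of 50 or more, adjustment over every deposited p, a signed z less the median of all genes or of genes of like length in 20 classes (gene span, and classes of coding genes alone, were added after the data were seen), structural subunits alone, leaving out chromosomes 8, 14 and Y, and other scales. Positions and lengths came from the GENCODE M21 annotation of GRCm38, where 90 members matched by symbol and Atp5md by a RefSeq synonym. Promoter windows came from RefSeq (GRCm38.p6), for 76 members. The code was tested on simulated data. The software was scipy 1.17.1, pandas 2.3.3, numpy 2.4.6 and matplotlib 3.10.9 under Python 3.11.15.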

Additional observations from a re-analysis of the deposited data

Results flagged for a closer look

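For 11 members the level of newly made RNA differed between the mutant groups by the authors' own DESeq2 test of dual-targeted against single-targeted lines, in which 7.06% of all genes tested were called in either direction. Each line was profiled once, so differences tied to a line and to its genotype cannot be told apart. The log2 differences, higher in dual-targeted lines for each of the 11 in the authors' deposited table, were 1.65 for Atp5k, 0.59 for Atp5b, 0.49 for Atp5c1, 0.56 for Atp5g3 and 0.53 for Atp5j2 in complex V. In complex IV they were 0.86 for Cox7c, 0.57 for Cox6c, 0.68 for Cox6b1 and 0.64 for Cox4i1 in the authors' deposited table. Complex III had Uqcr11 at 0.86 and complex I had Ndufa5 at 0.67 in the authors' deposited table. Cox4i1 lies on chromosome 8, whose genes were called lower more often than higher in both mutant groups, and Cox4i1, Cox6b1 and Atp5j2 were called between the mutant groups without a call against wildtype.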

How the results depend on the processing

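In dual-targeted lines 29 members were called at an adjusted p under 0.05, 13 under 0.01, 18 relative to genes of like spliced length, and 14 relative to coding genes of like spliced length or of like span. The 14 by span hold 13 kept calls and Atp5o, newly called. Atp5o was read at the longest coding gene annotated with that symbol, with a span of 242585 bases, so its class of span rests on that choice. Without the third line, H3f3a WT/A H3f3b A/A, the only library that could be left out, 16 were called. In single-targeted lines 0 were called, and 1, Ndufa13, was lower at an adjusted p under 0.1. Between the mutant groups the count of 11 became 2 under 0.01, 19 under 0.1, 7 with adjustment over every deposited p, 3 relative to genes of like spliced length, 4 relative to genes of like span, 3 relative to coding genes of like spliced length, 2 relative to coding genes of like span, 7 less the median over all genes, and 6 without chromosomes 8, 14 and Y. The 4 relative to genes of like span hold 2 kept calls, with Atp5o and Ndufaf2 newly called. Against wildtype the clones' count of 16 became 8 under 0.01 and 27 under 0.1. Relative to genes of like spliced length 14 of the 16 kept their calls, and relative to genes of like span 12 did. Relative to coding genes of like spliced length 11 did, and relative to coding genes of like span 9 did. Each of these length settings newly called Ndufv3, which was lower in the clones, at -0.48 in the authors' deposited table. Fewer genes or a stricter threshold account for some of these by construction; for the others the cause was not tested. Among the alternatives to the deposited fold changes, no called member reversed its direction. Other thresholds, adjustments of p, count limits and subsets of genes keep the deposited fold change and could not reverse it. Only the signed z settings and the clones' own comparison could have done so. In the rebuilt means of the third line, 25 of the 29 lay above wildtype when scaled by the sum of mean counts and 27 with no scaling between tables. In those of single-targeted lines, 20 of the 29 lay above wildtype under the median gene or the sum, and 11 with no scaling between tables. Scaled by the sum of mean counts, the rebuilt median log2 ratio to wildtype was -0.061 for the dual-targeted group, 0.069 for the clones and -0.22 for the third line, and with no scaling between tables it was -0.042 for that line. The medians of deposited fold changes moved by less than the median standard error of a member in the alternatives run. That error belongs to single members and does not measure the uncertainty of a median over them, so small shifts cannot be judged by it. The lower medians relative to genes of like length are given above. No paired analysis was possible because the files hold comparisons between groups and no values per library, so the replicate numbers of the labels could not be used as a block.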
